A study of Mus musculus with 13 samples.

Results

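p53 and its target genes were followed as a set of 10 genes taken by gene symbol: Trp53, Cdkn1a, Mdm2, Pmaip1, Perp, Bax, Bbc3, Ccng1, Phlda3 and Zmat3. Of these 10, 8 had a row in the expression table, out of 19505 genes with a row in all, and 1 row each. Trp53 and Bax were not analysed here. Of the 8, 6 reached the signal level set for testing, which means a signal above the array's median on at least 4 arrays. Phlda3 and Zmat3 did not.

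The samples were whole bone marrow of C57Bl/6J mice, 1 expression array each. The mice had been irradiated with 7 Gy and given LSK cells, the marrow fraction richest in stem and progenitor cells, from Cas9 knock-in donors 24 h after the cells received guide RNAs. Of the 13 arrays, 4 were labelled BRSST+sgEzh2, 5 carried BRSST+sgLuc and 4 sgLuc without BRSST, where sgLuc is the control guide, sgEzh2 is aimed at the histone methyltransferase gene Ezh2, and BRSST is a guide combination that the labels do not spell out. Cas9 donor cells and irradiation were common to all 3 groups. Marrow was taken when a mouse showed leukemia or otherwise after 6 months, and the labels do not say which applied to which sample. Nor do they say whether a guide of the BRSST combination is aimed at any of the 10 genes, what fraction of the marrow carried edits, or whether each array stands for its own mouse. The p-values therefore cover only the spread among these arrays, and part of it may be technical. Sample numbers in the labels' descriptions, other than the replicate numbers, run on through both BRSST groups and start again, higher, for sgLuc, so a difference in handling cannot be told apart from the presence of BRSST.

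p53 is a transcription factor that is kept low by the ubiquitin ligase Mdm2 and is stabilised by DNA damage and other stress. It binds DNA as a tetramer at paired half-sites and switches on genes that halt the cell cycle, trigger mitochondrial apoptosis or feed back on p53 itself. In marrow it limits the survival of blood stem and progenitor cells after irradiation, and loss of p53 is common in aggressive myeloid leukemia. The set spans these roles. Cdkn1a encodes p21, the inhibitor of cyclin-dependent kinases. Pmaip1 (Noxa) and Bbc3 (Puma) encode BH3-only proteins, and Perp encodes a membrane protein of apoptosis and desmosomes. Mdm2, Ccng1 (cyclin G1) and Phlda3, an inhibitor of Akt, belong to feedback loops, and Zmat3 encodes an RNA-binding zinc finger protein.

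RefSeq promoter windows (GRCm38.p6, from 250 bases before to 50 bases after a transcription start) were used for 5 of the 8 measured genes, in 8 windows. Windows were searched for the p53 half-site of 10 bases (3 purines, C, 2 bases that are A or T, G, 3 pyrimidines), which is its own reverse complement, so 1 search covers both strands. They were also searched for 2 half-sites set at most 1 base apart with at most 3 mismatches in all and with the C and G of each half-site kept. A perfect half-site was found in 3 of the 8 windows (37.5%), against 8.36% of all 32851 windows of this length. A pair was found in 3 of the 8 (37.5%), against 2.82% of all windows. A match describes letters and does not show binding. The 4 windows that hold a match are printed because they set a gene that was higher in the BRSST groups, Cdkn1a, beside 3 that were not called. Capitals mark perfect half-sites and the pair, 5′ to 3′ on the gene's strand.
Cdkn1a, upstream start, chr17:29090729-29091028, plus strand: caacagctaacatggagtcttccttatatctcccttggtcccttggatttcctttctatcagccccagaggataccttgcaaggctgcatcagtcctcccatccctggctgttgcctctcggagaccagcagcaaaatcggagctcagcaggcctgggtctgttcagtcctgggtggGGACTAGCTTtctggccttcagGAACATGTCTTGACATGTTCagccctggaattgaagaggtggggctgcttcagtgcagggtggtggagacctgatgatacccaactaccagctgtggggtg
Ccng1, chr11:40755237-40755536, minus strand: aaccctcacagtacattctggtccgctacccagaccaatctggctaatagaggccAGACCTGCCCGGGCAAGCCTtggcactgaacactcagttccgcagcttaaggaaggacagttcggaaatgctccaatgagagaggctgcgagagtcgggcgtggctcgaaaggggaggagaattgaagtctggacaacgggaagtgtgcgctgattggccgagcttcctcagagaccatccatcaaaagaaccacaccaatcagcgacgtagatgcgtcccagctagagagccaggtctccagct
Bbc3, first of 3 windows, chr7:16309333-16309632, plus strand: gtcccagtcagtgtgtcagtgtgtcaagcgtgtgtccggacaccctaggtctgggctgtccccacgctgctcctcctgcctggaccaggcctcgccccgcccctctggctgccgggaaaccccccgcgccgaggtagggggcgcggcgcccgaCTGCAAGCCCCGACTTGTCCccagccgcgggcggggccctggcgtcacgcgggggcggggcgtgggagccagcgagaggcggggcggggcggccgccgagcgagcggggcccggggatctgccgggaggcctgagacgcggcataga
Mdm2, chr10:117710709-117711008, minus strand: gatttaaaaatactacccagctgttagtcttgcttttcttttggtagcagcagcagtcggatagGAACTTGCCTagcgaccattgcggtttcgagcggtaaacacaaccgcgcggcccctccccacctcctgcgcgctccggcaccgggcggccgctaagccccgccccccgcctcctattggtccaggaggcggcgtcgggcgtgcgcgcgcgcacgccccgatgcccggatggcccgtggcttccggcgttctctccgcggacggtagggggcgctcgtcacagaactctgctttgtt

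The Cdkn1a pair, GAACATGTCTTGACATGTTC, had 1 mismatch and began 51 bases before the upstream start, which is 2841 bases before the second RefSeq start of Cdkn1a. The second Cdkn1a window held no match. The Ccng1 pair, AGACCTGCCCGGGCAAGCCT, also had 1 mismatch and began 195 bases before its start. The Bbc3 pair, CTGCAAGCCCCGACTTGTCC, had 3 mismatches and began 97 bases before its start. Mdm2 had a half-site without a partner in its window, and the Phlda3 window and the other 2 Bbc3 windows held neither. Sites outside these windows were not searched.

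Array medians lay between 7.19 and 7.32 on the log2 scale. All 12 neutrophil markers searched, such as Mpo and S100a8, were above the median on all 13 arrays labelled as marrow. Ezh2 averaged log2 8.78 ± 0.50 (SD, n = 4) in BRSST+sgEzh2 marrow, 9.82 ± 0.50 (SD, n = 5) in BRSST+sgLuc marrow and 10.35 ± 0.28 (SD, n = 4) in sgLuc marrow. Its difference between the BRSST groups was log2 -1.05 ± 0.26 (SE; limma adjusted p = 0.0808), and that of BRSST+sgEzh2 against sgLuc was -1.57 ± 0.28 (0.00306). The Y-linked genes Uty and Kdm5d were high on 2 of the 4 arrays with BRSST+sgEzh2, on 2 of the 5 with BRSST+sgLuc and on all 4 with sgLuc. BRSST+sgLuc replicates 2 and 5 stood farthest apart on the second principal component (37.1 and -32.2, with every other array between -7 and 14.2), so results on which they bear are also given without them.

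Cdkn1a, Perp and Pmaip1 were higher in marrow of both BRSST groups than in sgLuc marrow, while Mdm2, Ccng1 and Bbc3 passed the test in no comparison. In BRSST+sgEzh2 against sgLuc, 3 of the 6 tested genes were called higher and 0 lower, where 9.37% of all 10601 tested genes were called, 5.51% higher and 3.86% lower. In BRSST+sgLuc against sgLuc, the same 3 of 6 were called higher and 0 lower, against 22.5% of all tested genes, 10.8% higher and 11.7% lower. In BRSST+sgEzh2 against BRSST+sgLuc, 0 of 6 were called by limma, where 0.783% of all tested genes were called. An unadjusted p under 0.05 was reached by 0 of 6, against 13.9% of all tested genes. In that comparison the groups overlapped for all 6, while they did not overlap for 3.53% of all tested genes, 2.52% higher and 1.01% lower. Without BRSST+sgLuc replicates 2 and 5 the counts were 3, 3 and 0. Any 2 of the comparisons share arrays, 4 of sgLuc, 5 of BRSST+sgLuc or 4 of BRSST+sgEzh2, so the counts are not independent. The median difference of the 6 genes was log2 0.61, 0.46 and -0.05 in the order of these comparisons, beside 0.02, 0.01 and 0.01 over all tested genes. Perp lay below the array median on all 4 sgLuc arrays and was tested because of its BRSST signals, so these counts and medians describe the tested genes and are no support for a shift of the set. Without the signal filter, limma called 3 of the 8 genes in BRSST+sgEzh2 against sgLuc (5.16% of 19505 genes, 2.77% higher) and 2 of 8 in BRSST+sgLuc against sgLuc (11.9%, 5.43% higher).

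**Figure D1:**
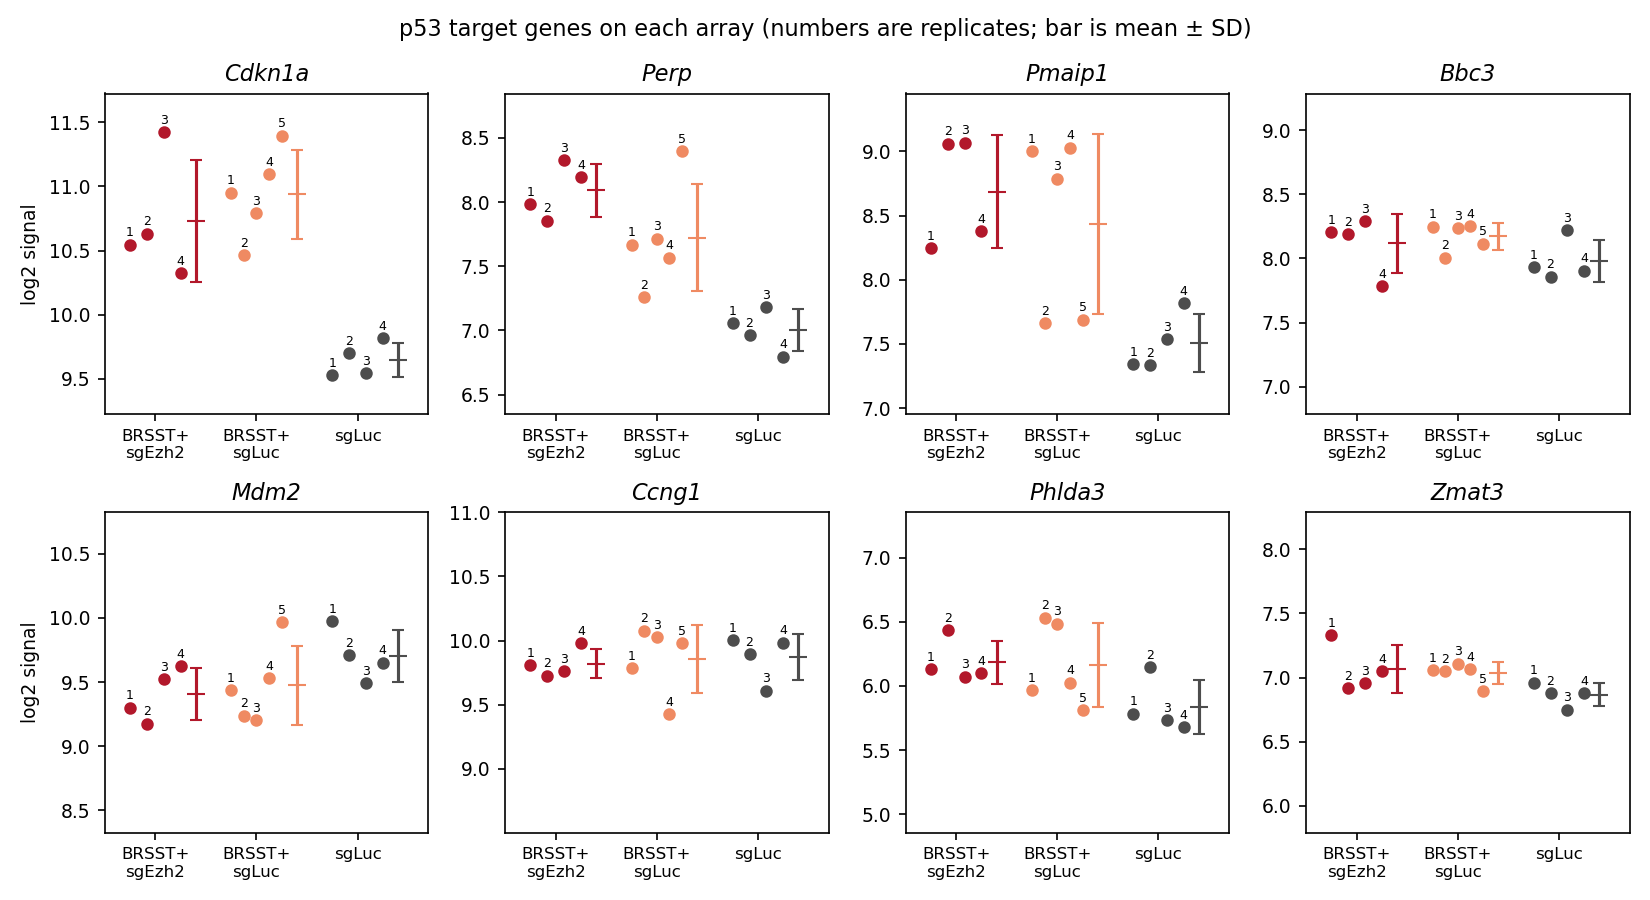
Log2 signal of the 8 measured genes on each array (y axis, each panel spanning 2.5 log2 units) in BRSST+sgEzh2, BRSST+sgLuc and sgLuc marrow. Points are arrays with their replicate number, and bars give the mean ± SD. Cdkn1a and Perp lie higher on all 9 BRSST arrays than on the 4 sgLuc arrays, and Pmaip1 does on 7 of the 9.

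Cdkn1a, the cell cycle inhibitor of the set, was more than doubled in both BRSST groups. Its log2 signal was 10.55, 10.63, 11.42 and 10.32 on BRSST+sgEzh2 replicates 1 to 4. It was 10.95, 10.46, 10.79, 11.09 and 11.40 on BRSST+sgLuc replicates 1 to 5, and 9.53, 9.70, 9.55 and 9.82 on sgLuc replicates 1 to 4. Every BRSST array of both groups lay above every sgLuc array, and the BRSST groups overlapped each other. Against sgLuc, Cdkn1a rose 2.12-fold in BRSST+sgEzh2 marrow (log2 1.08 ± 0.22, SE; limma adjusted p = 0.00783). It rose 2.45-fold in BRSST+sgLuc marrow (log2 1.29 ± 0.21; limma adjusted p = 0.00114). Groups did not overlap for 23.3% and 18.9% of all tested genes in these 2 comparisons, 14.2% and 9.09% with the BRSST group higher. With any 1 of the 13 arrays removed, both calls held (limma adjusted p at most 0.0309 and 0.00583). In the high Y-linked class alone the differences were log2 0.94 and 1.38. Without BRSST+sgLuc replicates 2 and 5 they were 1.08 and 1.30 (limma adjusted p = 0.00368 and 0.00142). Between the BRSST groups the difference was log2 -0.21, with a 95% interval from -0.66 to 0.25 (limma adjusted p = 0.72). Differences of either sign within this interval remain compatible with these arrays. The spread was wider in the BRSST groups, with an SD of 0.48 in BRSST+sgEzh2 and 0.35 in BRSST+sgLuc, against 0.14 in sgLuc. Of 10255 genes searched, Tspan4 (0.20), Rpl39 (0.23) and Pik3ip1 (0.23) followed Cdkn1a most closely, by the mean absolute difference between centred log2 signals over 13 arrays. They encode a tetraspanin, a ribosomal protein and an inhibitor of phosphoinositide 3-kinase. This closeness includes the group difference, which in BRSST+sgLuc against sgLuc was log2 1.145 (Tspan4), 1.13 (Rpl39) and 1.69 (Pik3ip1). The mean absolute deviation of Cdkn1a itself was 0.54.

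Perp, the membrane protein gene, was also higher on every BRSST array than on any sgLuc array. Its log2 signal was 7.99, 7.86, 8.33 and 8.19 in BRSST+sgEzh2 marrow. It was 7.67, 7.26, 7.71, 7.57 and 8.40 in BRSST+sgLuc marrow and 7.06, 6.96, 7.18 and 6.80 in sgLuc marrow. The BRSST groups overlapped each other through BRSST+sgLuc replicate 5, the highest array of all, while replicate 2 of that group lay close to the sgLuc arrays. Perp rose 2.13-fold in BRSST+sgEzh2 against sgLuc (log2 1.09 ± 0.20; limma adjusted p = 0.00353) and 1.65-fold in BRSST+sgLuc against sgLuc (log2 0.72 ± 0.19; limma adjusted p = 0.0143). Since the sgLuc signals lie in the lower part of the range, between the 43.2 and 47.5 percentile of their arrays, the folds can understate the change. Perp was tested because of its BRSST signals, so its p-values in the filtered fit are by themselves no support for a rise. In the fit without the filter the limma adjusted p was 0.0038 for BRSST+sgEzh2 and 0.0186 for BRSST+sgLuc, each against sgLuc. With the Y-linked class as a block, the difference of BRSST+sgLuc from sgLuc was log2 0.57 and its call ended (limma adjusted p = 0.0694). Within the high class alone it was log2 0.62 over 2 BRSST+sgLuc and 4 sgLuc arrays. BRSST+sgEzh2 against BRSST+sgLuc gave log2 0.37 (95% interval -0.03 to 0.77; limma adjusted p = 0.406). Without BRSST+sgLuc replicates 2 and 5 the difference from sgLuc was log2 1.09 in BRSST+sgEzh2 and 0.65 in BRSST+sgLuc (limma adjusted p = 0.000153 and 0.00384), and that between the BRSST groups was 0.44 (0.116).

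Pmaip1, the gene of the BH3-only protein Noxa, was high on 7 of 9 BRSST arrays. Its log2 signal was 8.25, 9.06, 9.07 and 8.38 in BRSST+sgEzh2 marrow, 9.01, 7.66, 8.79, 9.03 and 7.69 in BRSST+sgLuc marrow, and 7.34, 7.34, 7.54 and 7.82 in sgLuc marrow. BRSST+sgLuc replicates 2 and 5 lay within the range of the sgLuc arrays, and replicate 5 was low in Pmaip1 while it was the highest of its group in Cdkn1a, Perp and Mdm2. Pmaip1 rose 2.26-fold in BRSST+sgEzh2 against sgLuc (log2 1.18 ± 0.32; limma adjusted p = 0.0342) and 1.9-fold in BRSST+sgLuc against sgLuc (log2 0.93 ± 0.30; limma adjusted p = 0.0416). The second call was lost in 7 of the 13 fits that left out 1 array, namely BRSST+sgLuc replicate 1, 3 or 4 or any sgLuc replicate (limma adjusted p up to 0.108). It was also lost without the filter (0.0556) and with only the 2 groups compared (0.0595). The first was lost without BRSST+sgEzh2 replicate 2 or 3 or sgLuc replicate 1, 2 or 3 (up to 0.106). The fit without BRSST+sgLuc replicates 2 and 5 was chosen after seeing the data. It gave differences from sgLuc of log2 1.18 in BRSST+sgEzh2 and 1.43 in BRSST+sgLuc (limma adjusted p = 0.00207 and 0.000886). These 2 arrays were the lowest of their group for Pmaip1. Leaving them out had to raise the BRSST+sgLuc difference, so this fit is no support for it. The difference between the BRSST groups was log2 0.25 (95% interval -0.40 to 0.90; limma adjusted p = 0.772) and turned to -0.25 without those 2 arrays (0.59).

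Bbc3, the gene of the second BH3-only protein, stayed within a narrow band. Its log2 signal averaged 8.12 ± 0.23 (SD, n = 4) in BRSST+sgEzh2 marrow, 8.17 ± 0.11 (SD, n = 5) in BRSST+sgLuc marrow and 7.98 ± 0.16 (SD, n = 4) in sgLuc marrow. All 3 groups overlapped. The difference from sgLuc was log2 0.14 in BRSST+sgEzh2 (95% interval -0.14 to 0.41; limma adjusted p = 0.574) and 0.19 in BRSST+sgLuc (-0.07 to 0.46; 0.286). With array quality weights the second became 0.31 and was called (limma adjusted p = 0.0111).

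Mdm2, the main negative regulator of p53 and itself a p53 target, had lower means in both BRSST groups than in sgLuc marrow, without passing the test. Its log2 signal was 9.30, 9.18, 9.52 and 9.63 in BRSST+sgEzh2 marrow. It was 9.44, 9.24, 9.20, 9.53 and 9.97 in BRSST+sgLuc marrow and 9.98, 9.71, 9.49 and 9.65 in sgLuc marrow. The groups overlapped, and 5 of the 9 BRSST arrays lay below every sgLuc array. The difference from sgLuc was log2 -0.30 in BRSST+sgEzh2 (95% interval -0.66 to 0.06; limma adjusted p = 0.303) and -0.23 in BRSST+sgLuc (-0.57 to 0.11; 0.344). With array quality weights both were called lower, at log2 -0.41 and -0.31 (limma adjusted p = 0.0211 and 0.0437).

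Ccng1, the cyclin G1 gene of the feedback loop, showed the smallest differences from sgLuc of the 6 tested genes. It averaged log2 9.82 ± 0.11 (SD, n = 4) in BRSST+sgEzh2 marrow, 9.86 ± 0.27 (SD, n = 5) in BRSST+sgLuc marrow and 9.87 ± 0.18 (SD, n = 4) in sgLuc marrow. Its difference from sgLuc was log2 -0.05 in BRSST+sgEzh2 (95% interval -0.37 to 0.26) and -0.01 in BRSST+sgLuc (-0.31 to 0.28), with limma adjusted p of 0.876 and 0.961. Its printed window thus holds a pair with as few mismatches as that of Cdkn1a, beside a signal that did not pass in any comparison.

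Phlda3 and Zmat3 were below the signal set for testing and are described by their values. Phlda3 lay below the array median on all 13 arrays, with log2 signals from 6.07 to 6.43 in BRSST+sgEzh2, 5.81 to 6.53 in BRSST+sgLuc and 5.68 to 6.14 in sgLuc marrow. Zmat3 ran from 6.92 to 7.33 in BRSST+sgEzh2, 6.89 to 7.11 in BRSST+sgLuc and 6.75 to 6.96 in sgLuc marrow. All groups overlapped for both genes. Fitted without the filter, Phlda3 differed from sgLuc by log2 0.35 in BRSST+sgEzh2 and 0.33 in BRSST+sgLuc (limma adjusted p = 0.31 and 0.225), and Zmat3 by 0.20 and 0.17 (0.388 and 0.362). At signals this low a small change can be hidden by background.

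**Figure D2:**
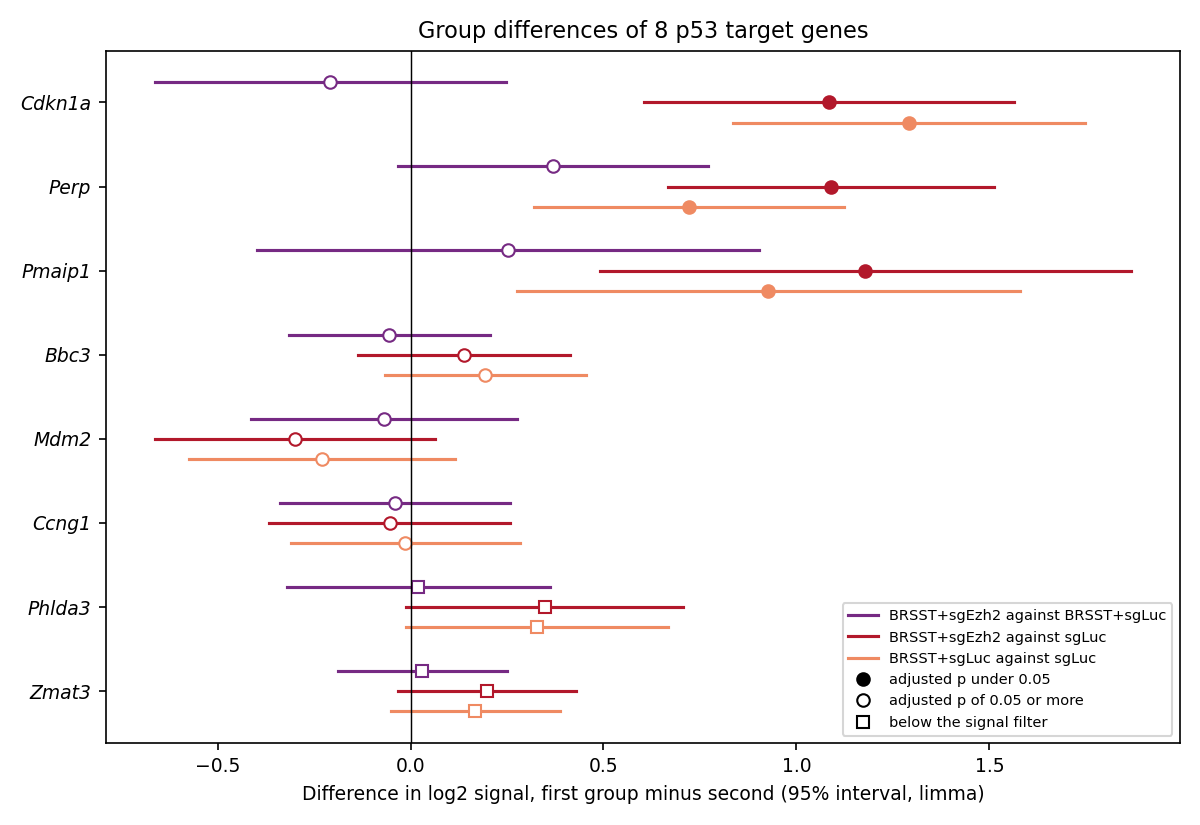
Difference in log2 signal (x axis, first group minus second) for each gene in BRSST+sgEzh2 against BRSST+sgLuc, BRSST+sgEzh2 against sgLuc and BRSST+sgLuc against sgLuc. Lines are 95% intervals from limma, filled points passed an adjusted p of 0.05, and squares are the 2 genes below the signal filter, taken from the fit without it. The intervals of Cdkn1a, Perp and Pmaip1 lie above 0 in both comparisons with sgLuc, and those of the other 5 genes span 0.

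Array by array, the 3 raised genes did not rank the BRSST samples alike. BRSST+sgEzh2 replicate 3 was the highest of its group for all 3, at log2 1.77 (Cdkn1a), 1.33 (Perp) and 1.56 (Pmaip1) above the sgLuc mean. BRSST+sgLuc replicate 2 was the lowest of its group for all 3, at 0.82, 0.26 and 0.16. BRSST+sgLuc replicate 5 stood at 1.75, 1.4 and 0.18, and replicates 1 and 4 showed the other order, with Pmaip1 at 1.5 and 1.52 and Perp at 0.67 and 0.57. Mdm2 was above the sgLuc mean on only 1 of the 9 BRSST arrays, BRSST+sgLuc replicate 5 (0.26).

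**Figure D3:**
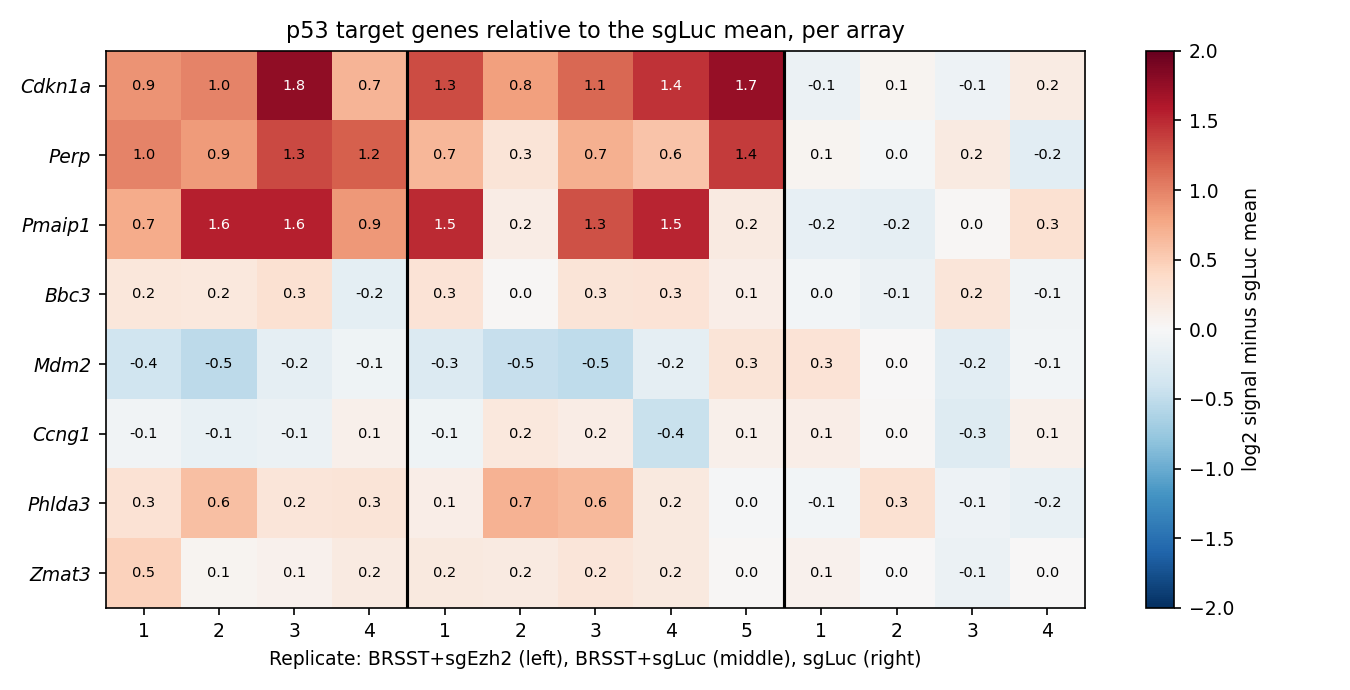
Log2 signal of each gene (rows) on each array (columns, by replicate) minus the mean of the 4 sgLuc arrays, with BRSST+sgEzh2 left, BRSST+sgLuc in the middle and sgLuc right. Red is above and blue below the sgLuc mean. Cdkn1a and Perp are above it on all 9 BRSST arrays, while BRSST+sgLuc replicates 2 and 5 are at 0.16 and 0.18 for Pmaip1.

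The share of other p53-induced genes called lay above that of all tested genes in BRSST+sgEzh2 against sgLuc and below it in BRSST+sgLuc against sgLuc. At an unadjusted p under 0.05 the shares were close in the first of these comparisons. A list of 39 other p53-induced genes from textbook knowledge had 32 tested members. In BRSST+sgEzh2 against sgLuc 4 rose and 1 fell (15.6%, against 9.37% of all tested genes, 5.51% higher and 3.86% lower). In BRSST+sgLuc against sgLuc 2 rose and 1 fell (9.38%, against 22.5%, 10.8% higher and 11.7% lower). Between the BRSST groups 0 passed, where 0.783% of all tested genes passed. At an unadjusted p under 0.05 the list had 6 genes (18.8%), against 13.9% of all tested genes, a share that was 24.3% in BRSST+sgEzh2 and 35.1% in BRSST+sgLuc against sgLuc. The median difference was log2 0.00 and -0.01 against sgLuc in these 2 comparisons and 0.05 between the BRSST groups, beside 0.02, 0.01 and 0.01 over all tested genes.

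Of the 11 tested cell cycle genes of that list, Sfn (14-3-3 sigma), which holds cyclin B outside the nucleus, rose in BRSST+sgLuc, and Ptp4a3, a phosphatase, fell. These 2 were 18.2% of the 11, against 22.5% of all tested genes called in BRSST+sgLuc against sgLuc. Sfn averaged log2 9.76 in BRSST+sgLuc and 8.69 in sgLuc marrow (1.07 ± 0.19; limma adjusted p = 0.00166), with no overlap. With the Ezh2 guide added, Sfn averaged 9.12 and differed from BRSST+sgLuc by log2 -0.64 ± 0.19 (limma adjusted p = 0.136) and from sgLuc by 0.42 ± 0.20 (0.206). Ptp4a3 averaged log2 11.07 in BRSST+sgLuc and 11.63 in sgLuc marrow (-0.56 ± 0.18; 0.0424). In BRSST+sgEzh2 against sgLuc 0 of the 11 passed by limma, where 9.37% of all tested genes did. Only 1 had an unadjusted p under 0.05 (9.09%, against 24.3% of all tested genes). That gene, Plk2, a polo-like kinase, was at log2 0.96 ± 0.43 (limma adjusted p = 0.188). Plk2 was above the array median on 0 of the 4 sgLuc arrays and was tested because of its BRSST signals, so its value is no support for a rise.

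Of the 9 tested apoptosis genes, 3 passed in BRSST+sgEzh2 against sgLuc (33.3%, against 9.37% of all tested genes). In BRSST+sgLuc against sgLuc 0 passed by limma, where 22.5% of all tested genes did, and 1, Fas, had an unadjusted p under 0.05 (11.1%, against 35.1%). Bid, the BH3-only protein cut by caspase 8, averaged log2 9.92 in BRSST+sgEzh2 and 9.33 in sgLuc marrow and rose 1.51-fold (log2 0.59 ± 0.13; limma adjusted p = 0.00997). Ei24, a membrane protein of the endoplasmic reticulum, averaged log2 10.39 in BRSST+sgEzh2 and 9.67 in sgLuc marrow and rose 1.64-fold (0.72 ± 0.19; 0.0298). Dram1, a lysosomal protein of autophagy, averaged log2 9.48 in BRSST+sgEzh2 and 10.21 in sgLuc marrow and fell (-0.735 ± 0.165; 0.0124). Against BRSST+sgLuc, Ei24 was at log2 0.78 ± 0.18 and Bid at 0.51 ± 0.12 (limma adjusted p = 0.0603 and 0.0665), short of the threshold. Fas, the death receptor, differed from sgLuc by -0.36 ± 0.14 in BRSST+sgLuc (0.0799).

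Of the 12 tested repair and metabolism genes, Abhd4, a lipid hydrolase, rose in both BRSST groups against sgLuc, by log2 0.79 ± 0.19 in BRSST+sgEzh2 (limma adjusted p = 0.0185) and by 0.66 ± 0.18 in BRSST+sgLuc (0.0178). Polk, a translesion DNA polymerase, rose in BRSST+sgEzh2 by log2 0.50 ± 0.13 (0.0305). The called genes were 16.7% of the 12 in BRSST+sgEzh2 and 8.33% in BRSST+sgLuc, against 9.37% and 22.5% of all tested genes. Ddb2 and Xpc, which recognise ultraviolet damage, and Rrm2b, the p53-induced subunit of ribonucleotide reductase, were not called in any comparison.

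**Figure D4:**
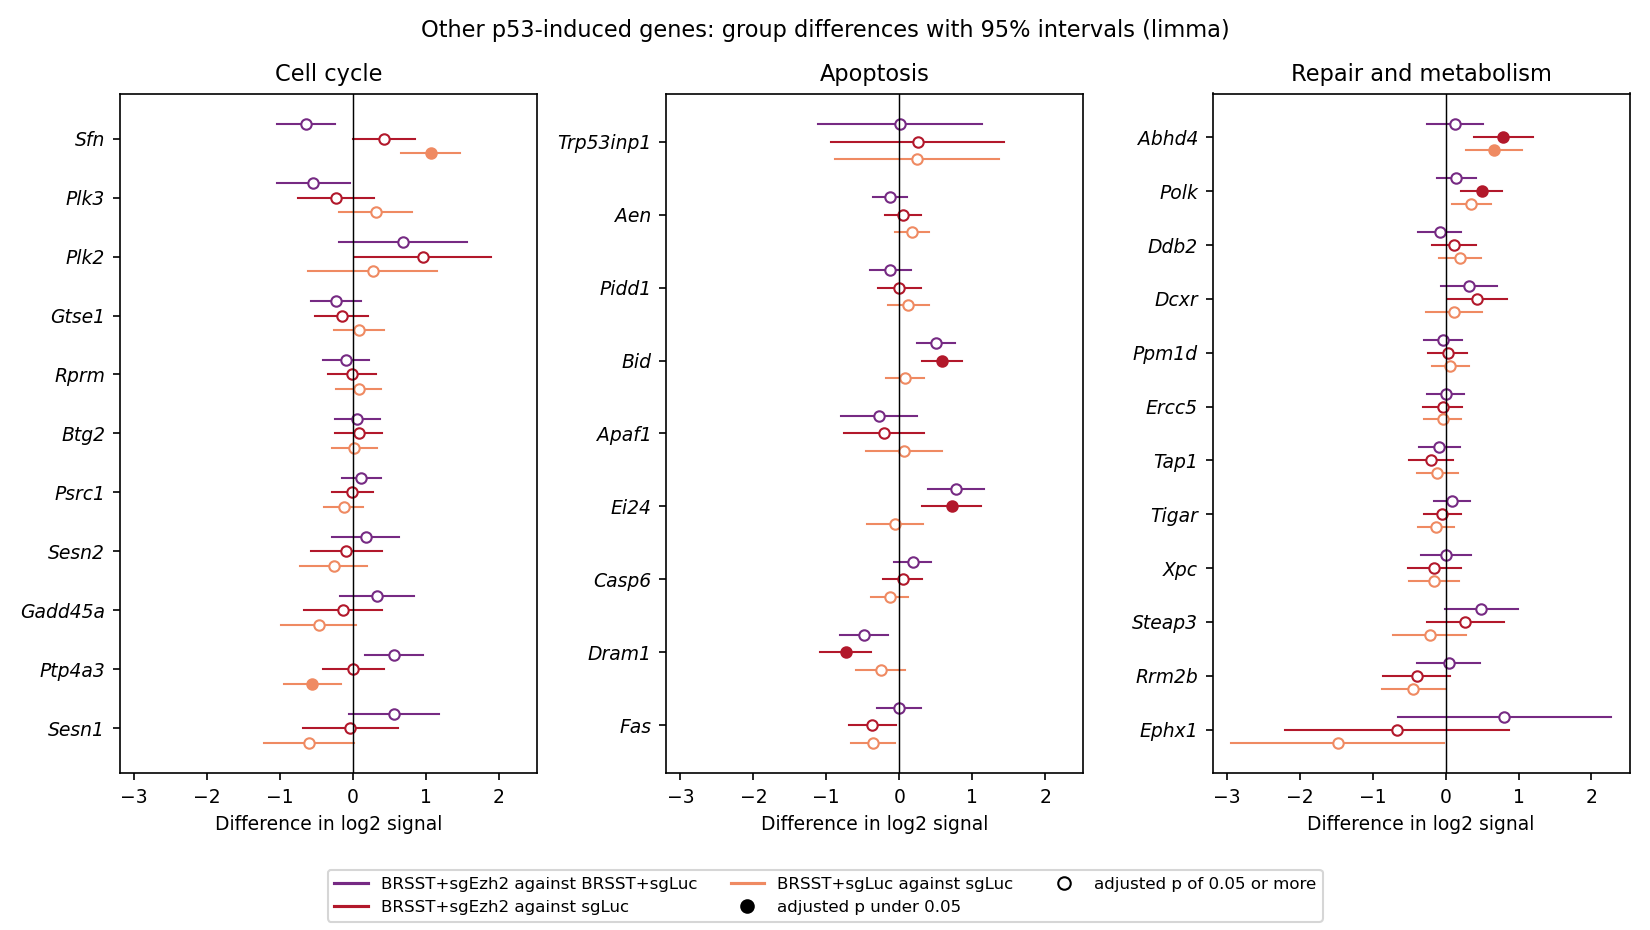
Differences in log2 signal (x axis, first group minus second) for the 32 tested genes of the list of other p53-induced genes, in 3 panels by role, with 95% intervals from limma. Colours are the 3 comparisons, and filled points passed an adjusted p of 0.05. Filled points number 5 in BRSST+sgEzh2 against sgLuc, 3 in BRSST+sgLuc against sgLuc and 0 between the BRSST groups.

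Among 14 tested p53 regulators and paralogs, 2 fell in marrow with BRSST+sgEzh2 and 1 with BRSST+sgLuc, both set against sgLuc. These were 14.3% and 7.14% of the list, beside 9.37% and 22.5% of all tested genes called, or 3.86% and 11.7% called lower. Pml, which gathers p53 and its modifiers in nuclear bodies, fell in both, by log2 -0.465 ± 0.126 in BRSST+sgEzh2 (limma adjusted p = 0.0341) and -0.755 ± 0.12 in BRSST+sgLuc (0.000889). Ep300, an acetyltransferase that modifies p53, fell in BRSST+sgEzh2 by -0.535 ± 0.13 (0.02). Between the BRSST groups 0 of 14 passed by limma, 2 had an unadjusted p under 0.05 (14.3%, against 13.9% of all tested genes), and Pml had the smallest p (0.29 ± 0.12; limma adjusted p = 0.293).

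Among 14 tested members of the BCL2 family beside the set, Bad, a BH3-only protein, rose in BRSST+sgLuc against sgLuc by log2 0.38 ± 0.11 (limma adjusted p = 0.0235). It was 7.14% of the list, against 22.5% of all tested genes. By limma 0 of 14 passed in BRSST+sgEzh2 against sgLuc, with 2 at an unadjusted p under 0.05 (14.3%, against 24.3% of all tested genes). Between the BRSST groups 0 passed by limma, with 3 at that level (21.4%, against 13.9%). In BRSST+sgEzh2 against sgLuc, Bad was at 0.29 ± 0.12 (0.142) and Bcl2l11 (Bim) at 0.52 ± 0.24 (0.192). Between the BRSST groups, Bcl2a1b and Bcl2a1a, near-identical survival genes whose probes can share signal, were at log2 0.93 ± 0.40 and 0.95 ± 0.43 (limma adjusted p = 0.319 and 0.345).

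Markers of other cell types also differed between the groups. Of all tested genes, 3.86% were called lower and 5.51% higher in BRSST+sgEzh2 against sgLuc. In BRSST+sgLuc against sgLuc these shares were 11.7% and 10.8%. An unadjusted p under 0.05 was reached by 24.3% and 35.1% of all tested genes in these 2 comparisons. The mean log2 signal of 9 B lineage markers ran from 7.23 to 9.31 in BRSST+sgEzh2, 7.07 to 8.93 in BRSST+sgLuc and 9.46 to 10.72 in sgLuc marrow. All 8 tested markers had lower means in both BRSST groups than in sgLuc marrow. By limma 1 of 8 fell in BRSST+sgEzh2 (7 at an unadjusted p under 0.05) and 7 of 8 in BRSST+sgLuc. The mean log2 signal of 9 T and NK cell markers ran from 6.29 to 8.75 in BRSST+sgEzh2, 6.40 to 8.10 in BRSST+sgLuc and 8.49 to 8.87 in sgLuc marrow, and by limma 1 of 8 fell in BRSST+sgEzh2 (3 at an unadjusted p under 0.05) and 6 of 8 in BRSST+sgLuc. That of 9 monocyte and macrophage markers ran from 9.09 to 9.84 in BRSST+sgEzh2, 8.44 to 9.66 in BRSST+sgLuc and 9.70 to 9.92 in sgLuc marrow, with 2 of 9 lower and 1 higher in BRSST+sgEzh2 and 4 of 9 lower in BRSST+sgLuc. That of 9 erythroid markers ran from 7.14 to 7.90 in BRSST+sgEzh2, 7.83 to 8.84 in BRSST+sgLuc and 7.13 to 7.55 in sgLuc marrow, and by limma 0 of 7 rose in BRSST+sgEzh2 (1 at an unadjusted p under 0.05) and 3 of 7 in BRSST+sgLuc. That of 12 neutrophil markers ran from 12.67 to 12.83 in BRSST+sgEzh2, 12.63 to 12.73 in BRSST+sgLuc and 12.81 to 12.93 in sgLuc marrow, with 1 of 12 higher and 1 lower in BRSST+sgEzh2 and 1 higher and 4 lower in BRSST+sgLuc. In bulk marrow a shift in cell types and a change of RNA per cell cannot be told apart, and the part of cell make-up in the differences of Cdkn1a, Perp and Pmaip1 was not tested.

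Of 16 tested genes of proliferation, which p21 restrains, 0 passed by limma in BRSST+sgEzh2 against sgLuc and 1 had an unadjusted p under 0.05 (6.25%, against 24.3% of all tested genes), Top2a at log2 -0.52 ± 0.21 (limma adjusted p = 0.144). In BRSST+sgLuc against sgLuc 2 fell, the topoisomerase gene Top2a (-0.74 ± 0.20; 0.0174) and the spindle checkpoint kinase gene Bub1 (-0.85 ± 0.25; 0.0238). That is 12.5% of the list, beside 11.7% of all tested genes called lower. The mean log2 signal of the 16 genes ran from 10.29 to 10.70 in BRSST+sgEzh2, 10.05 to 10.89 in BRSST+sgLuc and 10.58 to 10.82 in sgLuc marrow, so the groups overlapped.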

How the data were processed

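Bone marrow RNA of 13 samples was measured on Affymetrix arrays. Per the labels' protocols, 2 ng of RNA was amplified with 10 PCR cycles, which can compress differences. The authors deposited 1 log2 signal for each row on each array. The submitters' processing notes name R 3.5.01 and oligo. For background correction and normalization the method was not given in the sources used here, and the log2 scale was read from the values (3.23 to 13.75). Precision is limited by how many arrays there were.

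The table had 22203 rows, of which 19572 carried a single gene symbol and 2631 no symbol. For the 55 symbols with several rows the row of highest mean was used, which touched none of the p53 genes. Testing was limited to the 10601 genes above the array median on at least 4 arrays. A single limma fit (version 3.58.1, R 4.3.3) was made over all 13 arrays, with Benjamini-Hochberg adjustment over all tested genes and a threshold of 0.05. Every adjusted p is from limma, after ± stands the SE for a difference and the SD for a mean, and 95% intervals are unadjusted. The procedure was tested on simulated data. Promoter windows came from RefSeq, build GRCm38.p6, and were used for 7 of the 10 genes. Windows of the listed genes were not kept for every chromosome, while the count over all windows was not cut this way. Figures used matplotlib 3.10.9 in Python 3.11.15.

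The genes and lists were chosen with earlier results of these data known. Named genes are the 8 measured genes, from each list up to 4 passing genes with the largest difference or up to 2 with the smallest p where none passed, and the 3 closest to Cdkn1a. Not every gene so taken is described, and Ddb2, Xpc, Rrm2b, Mpo and S100a8 were chosen after their values were seen. Alternatives were other filters, quantile normalization, arrays set to equal medians, averaging a gene's rows, a replicate block, only the 2 groups compared, array quality weights, the Y-linked class (split at log2 6.09) as a block or alone, and each array left out. The fit without BRSST+sgLuc replicates 2 and 5 was chosen after seeing the data.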

Additional observations from a re-analysis of the deposited data

Results flagged for a closer look

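Of 93 groups checked over 31 named genes, 3 held an array whose distance to its nearest neighbour took up most of the group's range, where chance alone flags about 1 in 20. Phlda3 was highest on BRSST+sgEzh2 replicate 2, at log2 6.433 where the next array of the group was at 6.129. Zmat3 was lowest on BRSST+sgLuc replicate 5, at 6.892 where the next was at 7.052. Bcl2l11, the gene of the BH3-only protein Bim, was highest on sgLuc replicate 3, at 7.436.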

How the results depend on the processing

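The counts of called p53 genes held their size in most fits. The count in BRSST+sgEzh2 against BRSST+sgLuc was 0 under every alternative run. In BRSST+sgLuc against sgLuc it was 5 with array quality weights (4 higher, 1 lower) and 2 to 3 with 1 array left out, and in BRSST+sgEzh2 against sgLuc it was 4 with array quality weights and 4 in the high Y-linked class alone (3 higher and 1 lower in both), and 2 to 3 with 1 array left out. Leaving out BRSST+sgLuc replicates 2 and 5, chosen after seeing the data, gave 0 between the BRSST groups, then 3 for BRSST+sgLuc and 3 for BRSST+sgEzh2, each against sgLuc. Of the other p53-induced genes, array quality weights called 6, 12 and 9 in that order, the high Y-linked class alone 5 and 8 in the first 2, only the 2 groups compared 8 in the third, and the fit without BRSST+sgLuc replicates 2 and 5 called 1 in the first. With 1 array left out these counts ran from 0 to 4, 1 to 7 and 2 to 6. The first was 2, 4 or 1 without BRSST+sgLuc replicate 2, 3 or 5. The second was 7 without BRSST+sgLuc replicate 2 and 1 without sgLuc replicate 4. The third was 2 without sgLuc replicate 3 and 3 without sgLuc replicate 1, 2 or 4 or BRSST+sgEzh2 replicate 1, 2 or 4. The cause was not tested.

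Signs turned for small uncalled differences. Between the BRSST groups, Mdm2 was at log2 0.053 with the replicate block, 0.104 in the low Y-linked class and 0.015 without BRSST+sgLuc replicates 2 and 5, Pmaip1 at -0.21 with array quality weights, -0.365 in the high class and -0.25 without those 2 arrays, and Ccng1 at 0.062, 0.162 and 0.072 in these 3 fits. Ccng1 in BRSST+sgLuc against sgLuc was at 0.00015 with quantile normalization and 0.026 with equal medians. With 1 array left out, Mdm2 ran from -0.143 to 0.053, Bbc3 from -0.112 to 0.057 and Ccng1 from -0.148 to 0.014 between the BRSST groups, and Ccng1 from -0.102 to 0.094 in BRSST+sgLuc against sgLuc. Mdm2 was also called lower in BRSST+sgEzh2 against sgLuc in the high Y-linked class (log2 -0.47; limma adjusted p = 0.0474).

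The labels give the groups the same replicate numbers, without saying that they mark a shared mouse or day. Deviations of same-numbered arrays correlated at -0.18 to 0.19 over 12 pairs, and 1 of 13 arrays correlated best with its own number. The numbers were not taken to pair the samples. With the replicate block the counts of called p53 genes were 0, 3 and 3. The low Y-linked class holds no sgLuc array, so it gave no value against sgLuc, and the stricter filter left 4 of the 8 genes. Signals below the array median, those of Phlda3, most of Zmat3 and Perp in sgLuc, carry the least precise folds.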
